A study of Mus musculus with 120 samples.

Results

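The step from 1 week before onset to onset of hyperglycemia was measured in the immunological niche (IN) of NOD mice that progressed to diabetes. Of the 120 libraries of the series, 20 belong to this step: the 10 progressor libraries labelled onset and the 10 labelled 1 week before onset, taken from the same 10 mice and paired by mouse number. Mice 1 to 5 were sequenced in batch 1 and mice 6 to 10 in batch 2. All were female mice of the strain NOD/ShiLtJ, and the labels give no transgene and no treatment. Each carried several microporous polycaprolactone scaffolds under the skin of the back, of which 1 was explanted each week and replaced by a fresh one. Total RNA of the whole scaffold was sequenced after ribosomal depletion, so each library is a mixture of all cells that had entered or surrounded that scaffold. The onset library of a mouse is 1 week older, 1 surgery later and from another scaffold than its partner, and these differences cannot be told apart from onset itself. Blood glucose and the age at onset are not in the labels, and the glucose tracking supplied with the paper was not used here. Nonprogressors are NOD/ShiLtJ mice that stayed normoglycemic; their libraries at 18 and 22 weeks of age (4 mice, all batch 1) serve as a later pair of biopsies without onset. NOR mice, a related strain that does not become diabetic, enter only as an alternative control.

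Type 1 diabetes follows the loss of insulin-producing beta cells to T cells, and the onset of hyperglycemia means that insulin no longer holds glucose in range. Cells sense glucose partly through the transcription factors ChREBP (Mlxipl) and MondoA (Mlxip), which with their partner Mlx bind carbohydrate response elements and switch on Txnip and Arrdc4, related arrestin-domain proteins that lower glucose uptake. Insulin also holds up lipid synthesis in fat cells and holds back lipolysis, so adipocyte genes are a usual readout of insulin in tissue under the skin. The scaffold itself provokes a foreign body response, in which macrophages and giant cells line the polymer while vessels and collagen-making fibroblasts grow between them.

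The glucose-sensing genes are shown first by their promoters, since both targets found there had higher values at onset in 10 of 10 mice. Of 3 genes looked up (Txnip, Arrdc4 and Klf10), 2 matched the RefSeq promoter table. Each stretch runs from 250 bases before to 50 bases after the start site on the gene's own strand (build GRCm38.p6), at chr3:96557707-96558006 on the plus strand for Txnip and chr7:68749189-68749488 on the minus strand for Arrdc4. Capitals mark a match to the carbohydrate response element, searched as 2 copies of CACGNG with 5 bases of any kind between them, or to the single E-box CACGTG, each on either strand.
Txnip: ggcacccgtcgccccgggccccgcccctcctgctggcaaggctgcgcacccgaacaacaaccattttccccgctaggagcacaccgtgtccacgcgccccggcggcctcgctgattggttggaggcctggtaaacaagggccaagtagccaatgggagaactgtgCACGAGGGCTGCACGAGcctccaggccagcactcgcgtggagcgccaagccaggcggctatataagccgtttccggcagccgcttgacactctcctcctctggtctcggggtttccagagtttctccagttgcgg
Arrdc4: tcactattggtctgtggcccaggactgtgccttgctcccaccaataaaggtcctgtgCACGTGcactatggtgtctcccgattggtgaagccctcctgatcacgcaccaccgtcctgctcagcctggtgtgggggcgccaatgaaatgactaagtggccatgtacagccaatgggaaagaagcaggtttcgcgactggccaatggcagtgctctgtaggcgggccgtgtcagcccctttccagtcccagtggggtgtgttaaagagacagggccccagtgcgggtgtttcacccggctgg
The Txnip promoter held 1 full element, which 16 of 32851 promoters of this length hold (0.0487%). The Arrdc4 promoter held 1 CACGTG, found in 7.15% of promoters, and no full element of the searched form in this window. Looser forms of the element were not searched, so these counts hold for that form only. The CCAAT box, which lies beside such elements in known targets, occurred 2 times in the Txnip promoter and 6 times in the Arrdc4 promoter, counting both strands, and 37.4% of promoters hold at least 1. The CCAAT matches overlapped neither of the capital stretches.

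The libraries held between 22589371 and 50788052 counts, and 8 of 10 mice had more counts at onset. Ribosomal RNA, 7SL and mitochondrial genes took 0.858% to 22.5% of counts, a share that was higher at onset in 6 of 10 mice. Markers fixed for macrophages summed to between 4530 and 10521 CPM (counts scaled to library size by TMM) in the 20 libraries, and none of the 16 markers was at 0 in all of them. Tissue from around the scaffold varied far more. Skeletal muscle markers summed to between 78.0 and 34710 CPM, and adipocyte markers to between 146 and 2728 CPM. The onset library of mouse 7 stood apart, with 6727 CPM of hair follicle markers against at most 188 CPM in the other 19 libraries, and with 1396 CPM of keratinocyte markers against at most 58.1 CPM.

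Across 21451 genes tested, none passed the threshold at this step. edgeR's quasi-likelihood test with mouse as a block found 0 genes at a Benjamini-Hochberg adjusted p under 0.05 (0% of genes). The smallest adjusted p was 0.31. At an unadjusted p under 0.05 it counted 714 genes higher at onset (3.33%) and 1197 lower (5.58%), together 8.91%. These counts moved with single mice, to 341 higher and 805 lower without mouse 3, 453 and 786 without mouse 8, and 1029 and 1473 without mouse 2. DESeq2 on the same counts and design called 268 genes (1.25%), 48 higher (0.224%) and 220 lower (1.03%). The values below are therefore given as measurements, and no gene is said to rise or fall in the edgeR test. Counts of list members at an unadjusted p under 0.05 are to be read beside the 3.33% higher and 5.58% lower over all genes. The lists were chosen with earlier results of these data known, so those counts are no independent test. All 20 of the genes with the smallest p in edgeR, among the 16084 with a mean of at least 1 CPM, passed the DESeq2 threshold, while their edgeR adjusted p lay between 0.31 and 0.35.

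The 10 genes of that order that were higher at onset were the glucose-sensing pair Txnip and Arrdc4, the MHC class II chains H2-Eb1 and H2-Ab1, Klf10, Pla2g7 (a macrophage phospholipase that degrades platelet-activating factor), Sgk3 (an endosomal kinase related to Akt), Kdm7a (a histone demethylase), Sgms1 (sphingomyelin synthase) and Sypl (a vesicle membrane protein). Their log2 fold changes were small, from 0.22 to 0.57. The 10 that were lower were Ephb4, Tie1, Gja4, Adcy4, Shank3, Caskin2, Hoxd8, Hoxd9, Aqp1 and Prex2, with log2 fold changes from -0.99 to -0.50. Several of these are best known from blood vessels: Tie1 and Ephb4 are receptor kinases of endothelium, Gja4 is the gap junction protein of arterial endothelium, and Aqp1 is the water channel of capillaries and red cells. Genes higher at onset in all 10 mice numbered 58 (0.27% of those tested), and genes lower in all 10 numbered 67 (0.312%).

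**Figure D1:**
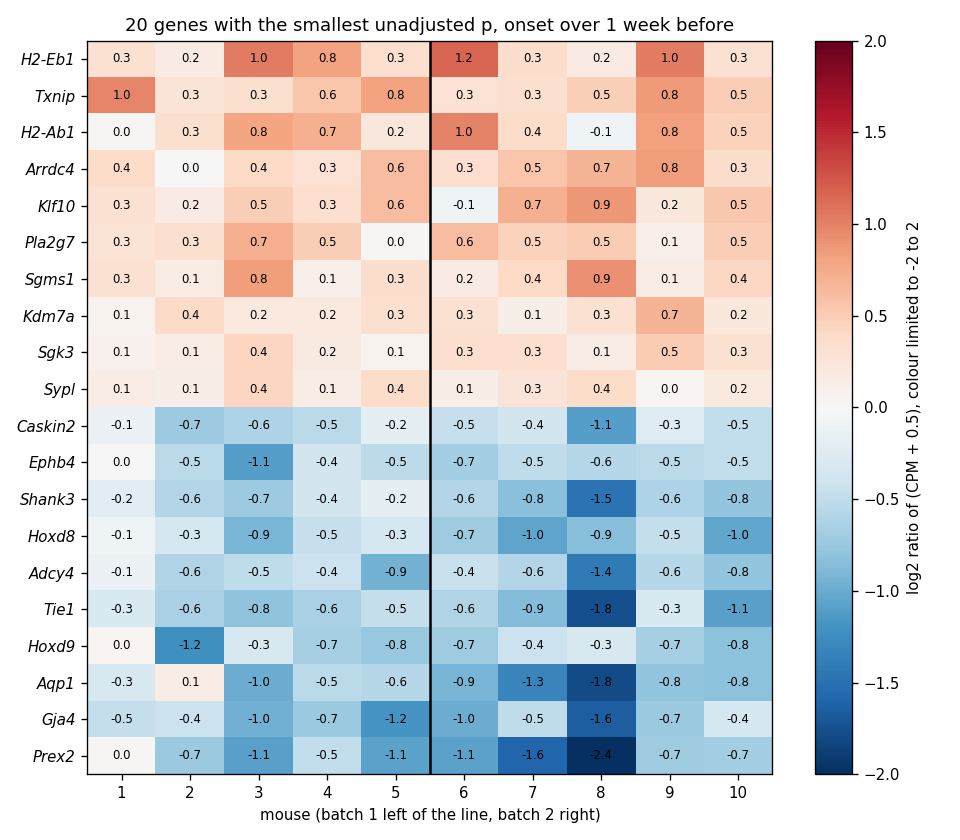
Log2 ratio of CPM + 0.5 at onset over 1 week before (colour, limited to -2 to 2, with the value printed) for the 20 genes with the smallest unadjusted p (rows) in each of 10 mice (columns; the line parts batch 1 from batch 2). Rows of higher genes are positive in 9 or 10 mice and rows of lower genes are negative in 9 or 10 mice, up to the rounding of values near 0.

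Txnip (chromosome 3, 96557957 to 96561883, plus strand, protein coding) had the smallest p of the glucose-sensing list. At 1 week before onset it ran from 236 to 617 CPM with a median of 469 CPM, and at onset from 456 to 912 CPM with a median of 601 CPM. The groups overlapped between mice, yet each mouse was higher at onset than its own earlier biopsy, by 0.26 to 0.97 on the log2 scale. The fitted log2 fold change was 0.53 ± 0.09 (SE, 10 mice), or 1.45-fold, with an edgeR adjusted p of 0.31 and a DESeq2 adjusted p of 6.17e-05. It was 0.56 ± 0.14 in batch 1 and 0.47 ± 0.12 in batch 2. Leaving out any 1 mouse moved it between 0.48 and 0.56.

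Arrdc4 (chromosome 7, 68736995 to 68749241, minus strand) went from 39.1 to 63.9 CPM (median 48.6) before onset to 59.4 to 79.4 CPM (median 66.7) at onset. Mouse 2, which had the highest earlier value, was higher by only 0.0049 on the log2 scale, and the other mice by 0.29 to 0.84. The log2 fold change was 0.45 ± 0.08, with 0.32 ± 0.09 in batch 1 and 0.54 ± 0.10 in batch 2. Its edgeR adjusted p was 0.31 with the 20 libraries, 0.044 without mouse 2, 0.0098 in a fit of all 58 progressor libraries and 0.0483 in a fit of the 40 from 5 weeks before onset on (0.0046% of genes called). Klf10, a Krüppel-like repressor also induced through ChREBP and MondoA, was higher in 9 of 10 mice, with a median of 51.2 CPM before and 69.3 CPM at onset and a log2 fold change of 0.42 ± 0.09.

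Of the 11 members tested of a list of 12 glucose-sensing genes, 4 had an unadjusted p under 0.05. All 4 were higher (Txnip, Arrdc4, Klf10 and Arrdc3), where 3.33% of all genes were higher at that threshold. The list was chosen with earlier results of these data known, so this is not an independent comparison. The list median was 0.13 on the log2 scale against 0.02 over all genes. Arrdc3, a further arrestin-domain gene, had a log2 fold change of 0.23 ± 0.08. Of the sensors themselves, MondoA (Mlxip) had 0.08 ± 0.08 and Mlx 0.13 ± 0.12, while ChREBP (Mlxipl), which fat cells make in quantity, had -1.35 ± 0.75. Pklr, a ChREBP target of liver, was too low to be tested. Among 22 genes of glucose transport and glycolysis the median was 0.14, 1 was higher at an unadjusted p under 0.05 (Pfkp, 0.32 ± 0.15) and none was lower. Without mouse 8 the median was 0.03 and without mouse 9 it was 0.25, and the count of higher members was 0 without mouse 3, 4, 5, 7, 8 or 10 and 2 without mouse 6. The hypoxia list had all 14 tested members above 0 (54.1% of all genes were), with a median of 0.31, and none of them had an unadjusted p under 0.05; P4ha1 came closest, at 0.36 ± 0.17. That median was 0.10 without mouse 8, 0.18 without mouse 7 and 0.47 without mouse 6, and 2 members were higher at that threshold without mouse 6 or mouse 9.

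**Figure D2:**
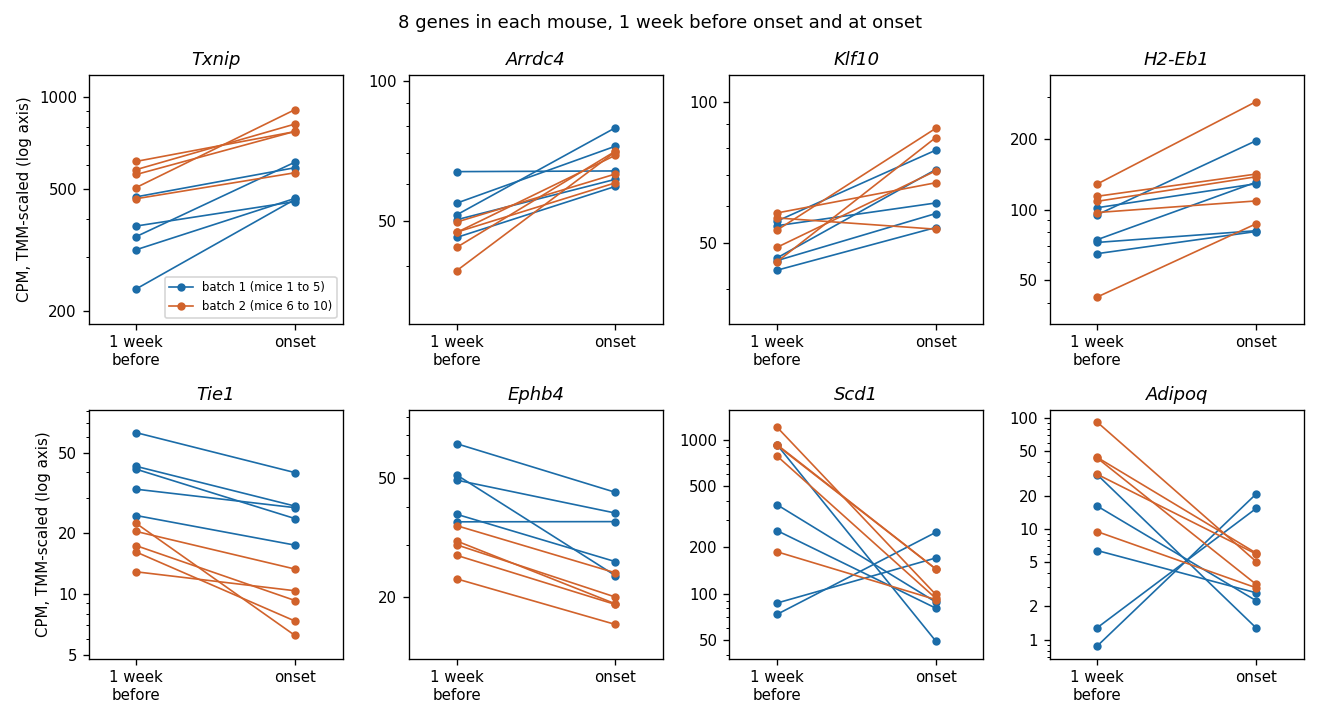
CPM of 8 genes (TMM-scaled, logarithmic axis) at 1 week before onset and at onset, 1 line for each mouse, blue for batch 1 and orange for batch 2. Txnip, Arrdc4, Klf10 and H2-Eb1 are higher at onset in 9 or 10 mice, Tie1 is lower in all 10, and Scd1 and Adipoq are lower in 8 with the 2 exceptions in batch 1.

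Of the 40 lists, the endothelial list had the largest share of members lower at an unadjusted p under 0.05. It too was chosen with earlier results of these data known. Of 15 endothelial markers, 10 had an unadjusted p under 0.05 and a negative log2 fold change, against 5.58% of all genes, none was higher at that threshold, and DESeq2 called 8 of them lower. The list median was -0.77, with -0.49 in batch 1 and -0.97 in batch 2, and it stayed between -0.83 and -0.64 when each mouse was left out, with 10 members lower each time. In such bulk libraries, fewer cells of a type and less RNA per cell cannot be told apart. Summed endothelial markers were lower at onset in 10 of 10 mice, with a median of 749 CPM (564 to 1501) before and 645 CPM (484 to 920) at onset. In the steps from 5 to 3 and from 3 to 1 weeks before onset, the list median lay above 0, at 0.16 and 0.19.

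Tie1, the endothelial marker with the smallest p, ran from 12.9 to 62.8 CPM (median 23.4) before onset and from 6.24 to 39.8 CPM (median 15.4) at onset. It was lower in every mouse, with a log2 fold change of -0.77 ± 0.13 and an edgeR adjusted p of 0.31. Pecam1, the junction protein CD31, had a median of 75.3 CPM before and 38.1 CPM at onset, at -0.86 ± 0.17. Kdr, the main receptor for vascular endothelial growth factor, had medians of 30.3 and 17.1 CPM, at -0.79 ± 0.16. Both were lower in all 10 mice, as were Cdh5 (VE-cadherin, -0.85 ± 0.19) and Egfl7 (-0.71 ± 0.15). Plvap, a protein of fenestrated and activated endothelium, had -0.99 ± 0.24, and Cldn5, a tight junction protein, -0.94 ± 0.24, each lower in 9 mice. Other endothelial markers lay nearer to 0. Vwf had -0.15 ± 0.17, Flt1 0.19 ± 0.21, and the lymphatic marker Lyve1 0.03 ± 0.36, each lower in 5 of 10 mice.

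Of the lower genes outside the endothelial list, Ephb4 had medians of 35.2 and 23.9 CPM, at -0.54 ± 0.09, and was lower in 9 of 10 mice. Gja4 was at 1.72 to 12.5 CPM before and 0.756 to 9.21 CPM at onset, at -0.97 ± 0.17, and was lower in every mouse. Aqp1 had medians of 135 and 69.1 CPM, at -0.80 ± 0.15, and only mouse 2 was higher. Prex2, an activator of the GTPase Rac, had -0.99 ± 0.19, Adcy4, an adenylyl cyclase, -0.68 ± 0.12, and Shank3, a scaffold protein best known at synapses, -0.65 ± 0.11. The homeobox genes Hoxd8 and Hoxd9, which neighbour each other on chromosome 2, had -0.66 ± 0.11 and -0.78 ± 0.15. Mouse 8 had the most negative log2 ratio of both Tie1 (-1.76) and Prex2 (-2.36), and mouse 1 the least (-0.30 and 0.03).

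Red cell genes were lower beside the vessel genes. Hbb-bs, a beta-globin, was lower in 9 of 10 mice, with medians of 176 and 43.7 CPM and a log2 fold change of -1.50 ± 0.41. Of 8 erythroid markers tested, 4 were lower at an unadjusted p under 0.05, against 5.58% of all genes, and none was higher. DESeq2 called those 4. Their sum went from a median of 465.5 CPM (73.3 to 1245) to 127 CPM (29.0 to 769) and was lower in 9 of 10 mice. The near-identical globin genes can share reads, so single globin values are uncertain. The part of blood content in the endothelial values was not tested.

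**Figure D3:**
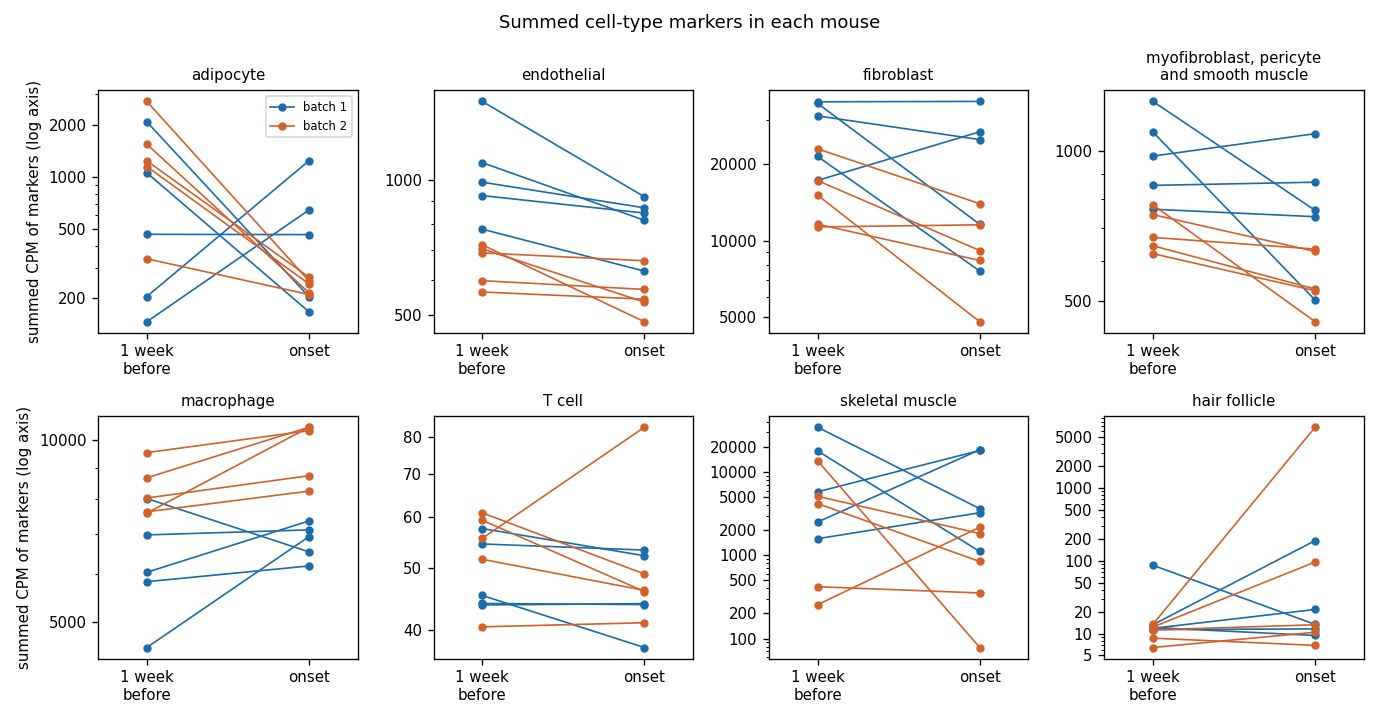
Summed CPM of 8 marker lists (logarithmic axis) at 1 week before onset and at onset, 1 line for each mouse, blue for batch 1 and orange for batch 2. The endothelial sum is lower at onset in all 10 mice, the macrophage sum is higher in 9, skeletal muscle varies from 78.0 to 34710 CPM, and hair follicle is high in the onset library of mouse 7.

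Mural cells and fibroblasts lay on the lower side too. Of 13 markers of myofibroblasts, pericytes and smooth muscle, 7 were lower at an unadjusted p under 0.05 and none higher. Of all genes, 5.58% were lower at that threshold. The list median was -0.70. Myh11, the smooth muscle myosin, had medians of 27.2 and 10.2 CPM, at -1.07 ± 0.30 and an edgeR adjusted p of 0.40. Notch3, a receptor of vessel mural cells, was lower in all 10 mice, at -0.53 ± 0.16. Cspg4, the pericyte proteoglycan NG2, lay above 0, at 0.45 ± 0.21 and higher in 6 mice. Acta2 and Tagln, the contractile genes of myofibroblasts, had -0.24 and -0.23, with unadjusted p of 0.41 and 0.47 in edgeR.

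All 15 fibroblast markers had a negative log2 fold change (45.9% of all genes did), with a median of -0.82, and 7 had an unadjusted p under 0.05. That count was 11, 13 and 14 without mouse 1, 2 and 4, and 6 without mouse 3, 5, 6, 7 or 8. Pi16, a marker of a progenitor-like fibroblast of connective tissue, had medians of 52.4 and 9.11 CPM, at -1.66 ± 0.46, yet was higher at onset in 3 of 10 mice. The list median was -0.32 in batch 1 and -1.34 in batch 2. Of 26 genes of collagens and collagen maturation, 12 were lower at an unadjusted p under 0.05, against 5.58% of all genes. None was higher. The count of lower genes was 5 without mouse 3 or mouse 5, 7 without mouse 6 and 6 without mouse 7. It was 17 without mouse 2 and 16 without mouse 4, and 1 gene was higher without mouse 6 or 9. Col3a1 ran from 3815 to 17372 CPM (median 8340) before and from 1397 to 17985 CPM (median 3830) at onset, at -0.83 ± 0.31. Col1a1 had medians of 9912 and 7299 CPM, at -0.54 ± 0.20, and the basement membrane chain Col4a2 had -0.74 ± 0.24. Each of these 3 was lower in 8 of 10 mice, with an edgeR adjusted p of 0.49, 0.48 and 0.47 for Col1a1, Col3a1 and Col4a2. Among the enzymes that hydroxylate and crosslink collagen, P4ha1 had 0.36 ± 0.17, Lox 0.10 and Plod1 -0.03. Among 25 matricellular and remodelling proteins the median was 0.03, with 1 member lower at an unadjusted p under 0.05 (Sparc, -0.51 ± 0.23) and Mmp12, the macrophage elastase, at 0.40 ± 0.22. The lower members numbered 8 without mouse 4, 4 without mouse 2, 2 without mouse 1 and 0 without any other mouse, and 1 was higher without mouse 1 or 6.

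Fat cell genes had the largest negative median of the 40 lists, -1.84, with all 17 adipocyte markers below 0. Of these, 9 had an unadjusted p under 0.05, and DESeq2 called 2 (Lep and Tmem45b). The median was -0.30 in batch 1 and -2.76 in batch 2. The count of 9 became 14 without mouse 1 or mouse 5, and 3 or 4 without mouse 3, 4, 6, 7, 8 or 10. Lep, the fat hormone leptin, ran from 0.43 to 11.9 CPM (median 7.97) before and from 0.23 to 3.12 CPM (median 0.979) at onset, at -2.30 ± 0.81 and an edgeR adjusted p of 0.48. Adipoq, adiponectin, had medians of 23.4 and 4.12 CPM, at -2.10 ± 0.92 and an edgeR adjusted p of 0.54. Both were lower in 8 of 10 mice, and for Adipoq the log2 ratio ran from -4.13 in mouse 4 to 3.93 in mouse 5, with mouse 1 also higher (3.14). Slc2a4, the insulin-responsive glucose transporter, had -1.40 ± 0.69 and was lower in 7 mice. Among the lists, mammary epithelium, which lies in the fat pad under the skin, also had a low median of -1.56, with all 12 tested markers below 0 and 1 at an unadjusted p under 0.05 (5 without mouse 5, and a median of -0.82 without mouse 4); how far adipocyte values reflect the amount of surrounding fat was not tested.

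Of 24 genes of fatty acid and triglyceride synthesis, 7 were lower at an unadjusted p under 0.05, against 5.58% of all genes. None was higher, and DESeq2 called 4 lower. The count of 7 became 14 without mouse 5, 5 without mouse 3, 6, 8 or 10 and 6 without mouse 4. Scd1, the stearoyl-CoA desaturase, ran from 73.2 to 1218 CPM (median 585) before and from 49.0 to 250.7 CPM (median 95.9) at onset, at -1.98 ± 0.60. Fasn, fatty acid synthase, had medians of 326 and 106 CPM, at -1.22 ± 0.37. Both were lower in 8 of 10 mice, with edgeR adjusted p of 0.43 and DESeq2 adjusted p of 0.0192 and 0.0172 for Scd1 and Fasn. Agpat2, an enzyme of triglyceride assembly, was lower in 9 mice, at -0.35 ± 0.09. The regulator Srebf1 had only -0.14 ± 0.08, and Acly and Acss2, which make the acetyl-CoA used, had 0.03 and 0.02. Cholesterol synthesis, with 22 genes, had a median of 0.13 and no member with an unadjusted p under 0.05; 1 was higher without mouse 1, 2, 6 or 9 and 1 lower without mouse 2 or 9.

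The lipolysis and lipid uptake list had a median of -0.30. Of its 16 members, 7 were lower at an unadjusted p under 0.05, against 5.58% of all genes. That count was 3 without mouse 3, 4, 6, 7, 8 or 10, 4 without mouse 2 and 8 without mouse 1 or 5. Pnpla2, the adipose triglyceride lipase, had -0.42 ± 0.13, and Gpihbp1, which holds lipoprotein lipase on capillary endothelium, -1.05 ± 0.35. Lpl itself had 0.01. Of 20 tested FoxO targets, genes that insulin represses, 2 were higher at an unadjusted p under 0.05, against 3.33% of all genes. None was lower, while 3 were lower without mouse 1, 2 without mouse 5 and 1 without mouse 2 or 7. The higher ones were Ccng2 (0.27 ± 0.09, higher in 9 mice) and Bcl6 (0.30 ± 0.11), and 1 member was higher at that threshold without mouse 3, 7 or 8. The classic members Pdk4 (-0.92 ± 0.83) and Irs2 (-0.02 ± 0.08) are values within about 1 SE of 0, and Pck1, which fat cells also make, had -2.05 ± 1.00. In the insulin and IGF list, 5 of 18 were lower and 1 higher at an unadjusted p under 0.05. The lower members numbered 8 without mouse 2 and 4 without mouse 3, 7 or 8, and 3 were higher without mouse 6. Socs2, a brake on growth hormone signalling, had -0.37 ± 0.09, Irs1 -0.90 ± 0.32, Igf2 -1.15 ± 0.38, and Pik3ca, the catalytic subunit of PI3-kinase, 0.15 ± 0.04 with all 10 mice higher. Igf1 had 0.17 ± 0.13. Of 27 genes of fatty acid oxidation and ketone metabolism none had an unadjusted p under 0.05; 3 were lower without mouse 5, 2 without mouse 1 and 1 without mouse 2, 4 or 8.

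**Figure D4:**
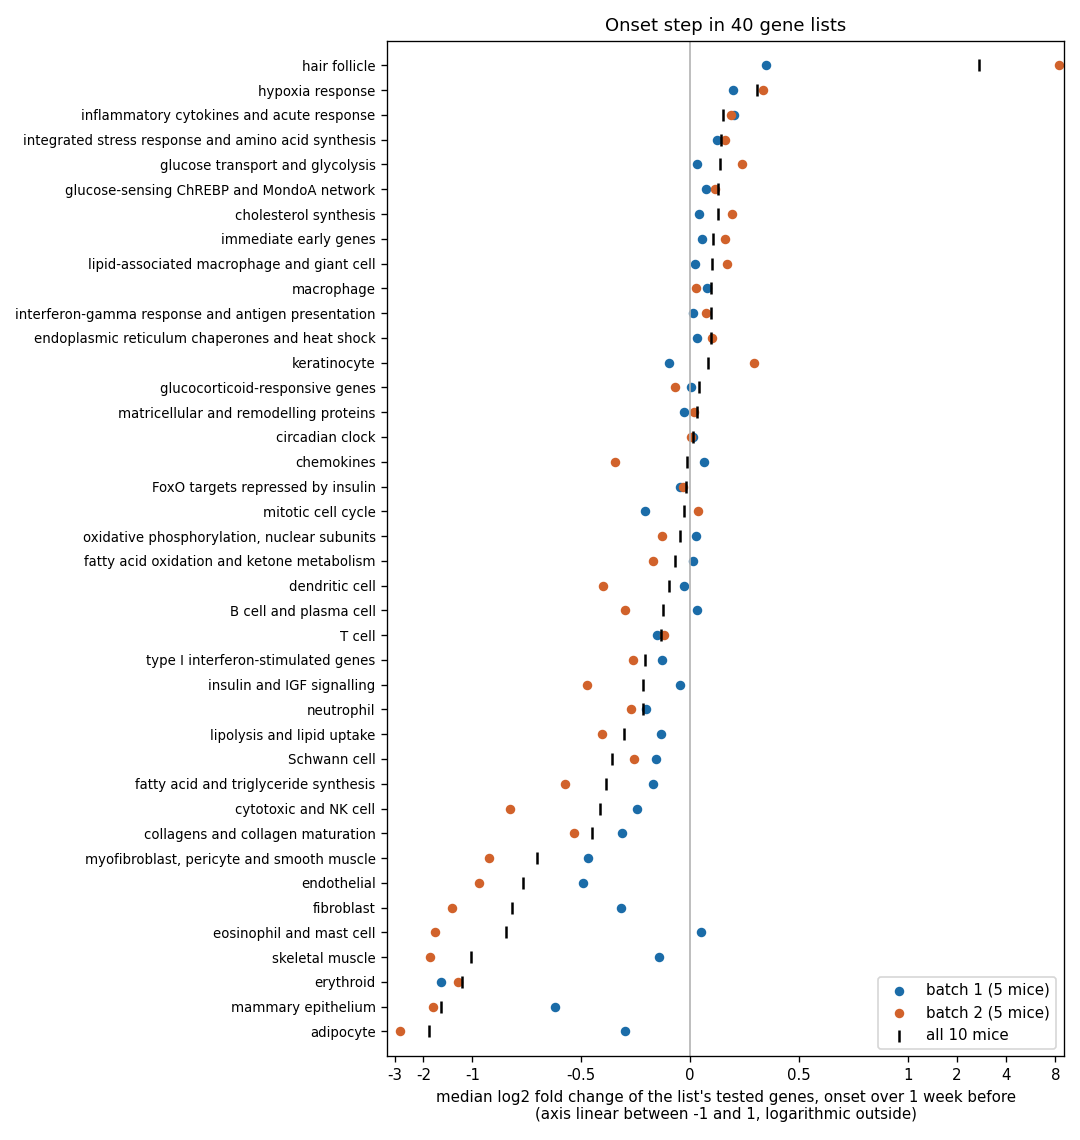
Median log2 fold change of each of 40 gene lists at onset over 1 week before (axis linear between -1 and 1, logarithmic outside), for all 10 mice (black), batch 1 (blue) and batch 2 (orange). Adipocyte is lowest at -1.84 with batch 1 at -0.30 and batch 2 at -2.76, endothelial lies at -0.77 with both batches negative, and hair follicle is highest at 2.72.

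On the immune side, MHC class II genes, which present peptides to helper T cells, were among the genes with the smallest p. H2-Eb1, which encodes the beta chain of I-E, ran from 42.5 to 129 CPM (median 96.2) before and from 80.7 to 288 CPM (median 130) at onset. It was higher in all 10 mice, with a log2 fold change of 0.57 ± 0.12. This is an RNA value, and whether I-E protein is made in these mice was not measured. H2-Ab1, the beta chain of I-A, had medians of 75.3 and 99.8 CPM, at 0.47 ± 0.11, and was higher in 9 mice. Its partner H2-Aa had 0.45 ± 0.11, and the invariant chain Cd74 0.40 ± 0.13. DESeq2 called H2-Eb1, H2-Ab1 and H2-Aa and did not call Cd74 (adjusted p = 0.13). Ciita, the master regulator of the class II genes, had 0.33 ± 0.22 and was higher in 5 of 10 mice.

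Of the 25 tested members of the interferon-gamma and antigen presentation list, 3 were higher at an unadjusted p under 0.05 (H2-Ab1, H2-Aa and Cd74) and 1 was lower (Cxcl11, -1.08 ± 0.43). Cxcl9 had -0.28 ± 0.49 and the class I gene H2-K1 0.17; Ifng was too low to be tested. Among 24 type I interferon-stimulated genes the median was -0.21, with 2 lower at an unadjusted p under 0.05 (0 without mouse 3 or 8, 1 without mouse 7, 4 without mouse 2 or 6 and 6 without mouse 4). Ifit3b had the smallest p, at -0.85 ± 0.33. Class II genes are made by macrophages, dendritic cells and B cells, and the markers of these cells were as follows. Macrophage markers summed to a median of 7595 CPM before and 7796 CPM at onset and were higher in 9 of 10 mice, with a list median of 0.10 and Msr1, a scavenger receptor, at 0.31 ± 0.10. Dendritic cell markers had a median of -0.10 with 2 of 14 lower at an unadjusted p under 0.05 (1 without mouse 3, 5 or 6 and 4 without mouse 9, with 2 higher without mouse 2), among them the migration receptor Ccr7 at -0.63 ± 0.19. B cell and plasma cell markers had a median of -0.13, with 1 of 19 lower at that threshold (Igha, -1.27 ± 0.54). That median ran from -0.62 without mouse 7 to 0.06 without mouse 10, so its sign rested on single mice, and 3 members were lower without mouse 1 and 0 without mouse 3, 7, 8 or 10. The part of cell makeup in the class II values was not tested.

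T cell genes were scarce in the scaffold. Cd3e, a chain of the T cell receptor complex, ran from 0.946 to 4.49 CPM before and from 0.73 to 3.66 CPM at onset, at -0.40 ± 0.24. Cd8a had a median of 0.554 and 0.296 CPM, at -0.19 ± 0.30. Of 19 T cell markers and 13 markers of cytotoxic and NK cells, none had an unadjusted p under 0.05, with medians of -0.13 and -0.41. Leaving out mouse 9 gave 1 lower T cell marker and 3 lower cytotoxic and NK markers, and leaving out mouse 4 gave 1 and 2. The neutrophil median was -0.22 with 0 of 10 at an unadjusted p under 0.05, and Marco, a macrophage scavenger receptor, had -0.46 ± 0.53. Eosinophil and mast cell markers had a median of -0.85 (0.05 in batch 1 and -1.70 in batch 2), and 1 of 15 had an unadjusted p under 0.05, the eosinophil receptor Siglecf, which was higher at 0.43 ± 0.19. The lower members numbered 6 without mouse 1, 4 without mouse 4, 3 without mouse 2 and 1 without mouse 5, and none was higher without mouse 2, 4, 5, 6, 9 or 10. Among 25 chemokines, 1 was higher and 2 were lower at an unadjusted p under 0.05, with 4 lower without mouse 4 and, on the higher side, 4 without mouse 6 and 2 without mouse 5. Cxcl16, a macrophage chemokine, was higher at 0.34 ± 0.08 in 9 mice, and Cx3cl1, an endothelial one, was lower at -0.46 ± 0.14 in 9 mice. Nos2, the inducible nitric oxide synthase, had medians of 17.1 and 39.9 CPM, at 1.2 ± 0.48 with 8 mice higher, and was the only 1 of 19 inflammatory genes at an unadjusted p under 0.05. The higher genes numbered 4 without mouse 6, 2 without mouse 1 or 9 and 0 without mouse 3, 7 or 10, and 1 was lower without mouse 5. Lipid-associated macrophage and giant cell markers had a median of 0.10, with Dcstamp, needed for macrophage fusion, at 0.36 ± 0.12.

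Of 17 chaperone and heat shock genes, 4 were higher at an unadjusted p under 0.05, against 3.33% of all genes, and none was lower. The smallest p was that of Dnajb9 (0.23 ± 0.08), and 16 were above 0. The higher genes numbered 2 without mouse 3, 7 or 8. Of 20 genes that glucocorticoids regulate, 1 was lower at that threshold (Hsd11b1, -0.73 ± 0.30) and none was higher; the lower genes numbered 3 without mouse 2, 2 without mouse 1 or 4 and 0 without mouse 3, 6, 7, 8 or 9. Fkbp5 had -0.16 ± 0.14 and Tsc22d3 0.13 ± 0.10. Slc7a11 (0.35 ± 0.15) was the 1 gene of 20 higher in the integrated stress response list, and Klf6 (0.20 ± 0.07) the 1 of 23 among immediate early genes. The first list had 0 higher without mouse 3, 4 or 7, and the immediate early list had 0 without mouse 7, 2 without mouse 1 or 3 and 3 without mouse 2. The circadian list had a median of 0.01, with 2 of 19 higher at an unadjusted p under 0.05, among them Nfil3 (0.50 ± 0.22), and 1 lower (Cry2); none was higher without mouse 3, 5, 7, 8 or 10, and 4 were lower without mouse 8, 3 without mouse 1 and 0 without mouse 2, 3, 4, 6, 7, 9 or 10. Angptl4, an inhibitor of lipoprotein lipase, had -0.38 ± 0.22. No gene of the 26 in the mitotic list or the 25 in the oxidative phosphorylation list had an unadjusted p under 0.05.

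Hair follicle markers had a median of 2.72, with 4 of 15 higher at an unadjusted p under 0.05 (7 without mouse 2 and 0 without mouse 4 or 8), and Krt71, a keratin of the hair root sheath, had a log2 fold change of 6.59 ± 2.35. It had 1988 CPM in the onset library of mouse 7, with 0 to 43.0 CPM in the other 9 onset libraries and 0 to 12.2 CPM before onset. Without mouse 7 the list median was 0.94. Keratinocyte markers had a median of 0.08, and -0.45 without mouse 7. Skeletal muscle had a median of -1.03, with none of 15 markers at an unadjusted p under 0.05. In the Schwann cell list Ngfr, the low-affinity nerve growth factor receptor, had medians of 7.39 and 1.45 CPM, at -1.85 ± 0.43, and was lower in 9 of 10 mice, while the list median was -0.36 and no other member had an unadjusted p under 0.05 (1 other did without mouse 1).

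The step was set against 3 others by a test of the difference itself. The onset step minus the step from 18 to 22 weeks in nonprogressors gave 0 of 21721 genes at an edgeR adjusted p under 0.05 (0%), with 1176 at an unadjusted p under 0.05 (5.41%) and 19 by DESeq2. In simulated data this test of the difference recovered 0% of planted log2 changes of 0.5 and 34.5% of those of 1. Its 0 calls thus do not show that the 2 steps are alike. The nonprogressor step alone gave 21 genes of 18849 (0.111%), all lower at 22 weeks. It gave 0 without mouse as a block and 0 without mouse 1, 2 or 4, and 34 without mouse 3. The 3 with the smallest p were Igha (-2.36 ± 0.17), Aspn (-1.43 ± 0.11) and Gxylt2 (-1.69 ± 0.14), and the 21 hold the matrix genes Postn, Loxl1 and Pcolce. At the onset step these had -1.27, -0.80 and -1.16 for Igha, Aspn and Gxylt2, also below 0. The nonprogressor interval is 4 weeks and not 1, and its 22-week libraries had 21.3% to 52.7% of counts on ribosomal, 7SL and mitochondrial genes, against 6.55% to 15.8% at 18 weeks.

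Among single genes, Txnip had -0.29 ± 0.14 in nonprogressors, lower in 3 of 4 mice, and the difference between the steps was 0.80 ± 0.17 (unadjusted p = 0.000331, edgeR adjusted p = 0.90). H2-Eb1 had -0.56 ± 0.27 there, with a difference of 1.10 ± 0.29 (edgeR adjusted p = 0.90), and H2-Ab1 had -0.60 ± 0.25, with a difference of 1.04 ± 0.26. With 57 libraries scaled together, H2-Eb1 had medians of 116 and 77.2 CPM in nonprogressors at 18 and 22 weeks, and 119 CPM at onset. H2-Ab1 had 88.7, 56.2 and 90.5 CPM. The onset medians thus lay near those of nonprogressors at 18 weeks. Arrdc4 had 0.33 ± 0.18 in nonprogressors, so its difference was 0.09 ± 0.18. It was higher in nonprogressor mice 3 and 4 (0.78 and 0.68) and slightly lower in mice 1 and 2 (-0.09 and -0.02). For Tie1 the control value was -0.01 ± 0.31 and the difference -0.78 ± 0.33. Tie1 was lower in nonprogressor mice 1, 2 and 4 (-0.44, -0.20 and -0.59) and higher in mouse 3 (1.33), whose 18-week library held 4722396 counts. Pecam1 and Kdr were also lower in mice 1, 2 and 4 and higher in mouse 3. Ephb4 was as low in the control step, at -0.68 ± 0.18. The fibroblast list had medians of -0.89 in nonprogressors and -0.82 at onset, and collagens -0.48 and -0.45. The endothelial list had -0.23 and -0.77, and the adipocyte list -0.76 and -1.84. Differences between list medians were not tested. In NOR mice from 18 to 22 weeks Txnip was higher in 4 of 4 mice, by 0.07 to 1.02 on the log2 scale, where the highest is mouse 5, whose 18-week library had 87.5% of counts on ribosomal, 7SL and mitochondrial genes.

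The second comparison set the onset step against the step from 5 to 3 weeks before onset in the same 10 mice. The difference gave 0 of 21725 genes at an edgeR adjusted p under 0.05, with 2139 at an unadjusted p under 0.05 (9.85%) and 5 by DESeq2. That unadjusted count was 1256 without mouse 3, and 967 with the step from 3 to 1 weeks before onset as the earlier one, a step that shares the libraries of 1 week before onset. The onset step and the step from 5 to 3 weeks share no library. Scd1 had 1.41 in the earlier step and -1.98 at onset, and the difference, estimated over 40 libraries, was -3.37 ± 1.02 (edgeR adjusted p = 0.44). Fasn had 1.25 earlier, with a difference of -2.51 ± 0.71. Over the 57 libraries scaled together, Scd1 had medians of 203, 622, 544 and 88.1 CPM at 5, 3 and 1 weeks before onset and at onset, with the lowest value between 45.1 and 66.7 CPM at every time. The onset median was thus below the medians at 5, 3 and 1 weeks before onset, and the ranges overlapped. Nonprogressors, which stayed normoglycemic (all batch 1), also had low medians at 18 and 22 weeks. These were 150 and 95.8 CPM for Scd1 and 133.5 and 110 CPM for Fasn, which had 98.9 CPM at onset. Adipoq had 2.44 and 1.61 CPM, against 3.75 CPM at onset, and Lep 1.27 and 0.813 CPM, against 0.913 CPM. Low values of these genes were thus not particular to onset. The difference from the earlier step was -1.10 ± 0.44 for Tie1, 0.49 ± 0.16 for Pla2g7 and 0.31 ± 0.19 for Txnip. Tie1 had medians of 14.1, 16.4, 21.7 and 14.1 CPM at 5, 3 and 1 weeks before onset and at onset. Kdr had 19.0, 19.7, 28.2 and 15.7 CPM, and Pecam1 47.5, 55.9, 69.95 and 35.1 CPM. Ephb4 had 24.1, 29.0, 32.4 and 21.6 CPM. Each had its highest median of these times at 1 week before onset, and its onset range overlapped that at 5 weeks before.

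Among progressors at 5, 3 and 1 weeks before onset and at onset, Txnip and Arrdc4 had their highest median at onset. Arrdc4 had medians of 38.3, 42.7, 44.9 and 60.6 CPM over those times, and its lowest onset value of 55.2 CPM lay above all values at 5 weeks before onset (27.4 to 43.7 CPM) and within the range at 3 weeks and 1 week before. In nonprogressors Arrdc4 ran from 38.27 to 42.04 CPM at 18 weeks and from 39.11 to 66.26 CPM (median 52.97) at 22 weeks. At 22 weeks mice 3 and 4 had 66.26 and 64.52 CPM, above the onset median. Mice 1 and 2 had 39.11 and 41.42 CPM, below all onset values. Onset levels of Arrdc4 were thus also reached in nonprogressors. Txnip had medians of 400, 441, 432 and 548 CPM. In nonprogressors the Txnip medians were 312 CPM at 18 and 276 CPM at 22 weeks, and no nonprogressor library (169 to 366 CPM) reached the lowest onset value of 419 CPM. All nonprogressor libraries of these ages are from batch 1, where the 5 onset libraries had 419 to 562 CPM and the same mice 215 to 440 CPM 1 week earlier. In batch 2 the onset libraries had 524 to 856 CPM, with no nonprogressor library of these ages beside them.

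**Figure D5:**
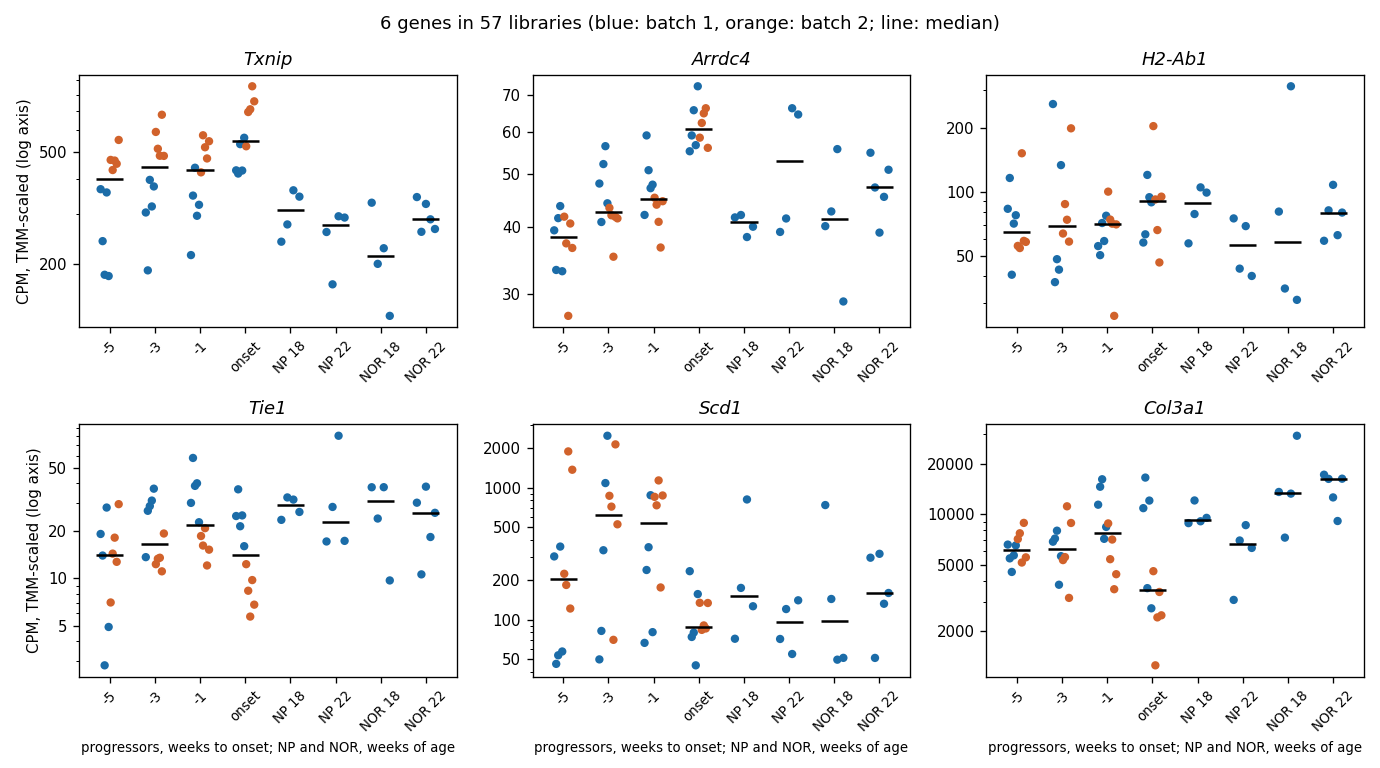
CPM (57 libraries scaled together, logarithmic axis) of 6 genes in progressors at 5, 3 and 1 weeks before onset and at onset, and in nonprogressors (NP) and NOR mice at 18 and 22 weeks of age. Points are libraries (blue batch 1, orange batch 2) and lines are medians; Arrdc4 has its highest median, 60.6 CPM, and Scd1 its lowest, 88.1 CPM, at onset.

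The third comparison asked whether the step differed between the batches, which were also separate cohorts of mice run on different sequencers. It gave 0 of 21451 genes at an edgeR adjusted p under 0.05, with 565 at an unadjusted p under 0.05 (2.63%) and 2 by DESeq2 (Sncg and Hba-a2). The unadjusted count was 1694 without mouse 3, 971 without mouse 9, 991 without mouse as a block, 353 without mouse 1 and 285 without mouse 2. Within batch 1 the test called 1 gene, Ptpn5 (-1.98), a phosphatase. Within batch 2 it called 6, of which Krt31, Krt33a, Krtap11-1 and Krtap14 are hair genes, the first 3 highest in the onset library of mouse 7, and Tnxb (-1.93) and Pi16 (-2.30) are fibroblast genes. The adipocyte, fibroblast and eosinophil medians were farther from 0 in batch 2, while those of the glucose-sensing list were 0.07 and 0.12 and those of the T cell list -0.15 and -0.12, in batch 1 and batch 2.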

How the data were processed

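RNA of whole scaffolds was sequenced with a different NovaSeq model for each batch. The authors deposited 1 table of expected counts per gene for each batch, made with cutadapt, STAR and RSEM on GRCm38 per the submitters' processing notes (versions not given in the sources used here), with FastQC and MultiQC as quality checks. The expected counts were not normalized; those of genes in both tables (55487) were rounded to whole numbers. The 2 tables were processed in separate batches, and each mouse lies within 1 of them at this step.

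Genes were kept by filterByExpr, scaled by TMM and tested with edgeR 4.0.16 (quasi-likelihood, R 4.3.3), with mouse as a block and Benjamini-Hochberg adjustment. DESeq2 1.42.0 was an alternative; other scalings, filters, fits, batches and left-out mice are given in the closing section. CPM are counts scaled to library size by TMM and log2 ratios of single libraries use a pseudocount of 0.5. The scripts were tested on simulated data with 200 planted changes each. At a log2 change of 0.5, the onset test recovered 20% and the test of its difference from the nonprogressor step 0%. At a log2 change of 1 these shares were 72% and 34.5%. Pairing comes from the labels, where a number marks 1 animal. After removal of batch means, deviations of the 2 libraries of a mouse correlated at -0.24 on average over 2000 variable genes (-0.587 to 0.171), against 0.0627 for other mice of that batch. Removing batch means ties these 2 averages together, so the second is not a separate comparison. The onset library correlated best with the earlier library of its own mouse in 0 mice. With mouse as a block, the p-values measure how far the change within a mouse varied between these mice.

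Coordinates are from GENCODE M21 (GRCm38), which matched 99.5% of gene IDs. RSEM can split reads of near-identical genes, and strand use is not given in the sources used here.

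The members and the 40 gene lists were chosen with earlier results of these data known. Named genes are, for higher and lower values separately, the 10 of lowest p at a mean of at least 1 CPM and the member of lowest p of every list, with a fixed set and, in the other comparisons, up to 3 genes past the threshold each way. Further members of lists were named after their values were seen. Ctgf and Cyr61 were matched as Ccn2 and Ccn1, and Ahsp had no match. Some genes of the fixed set and the lists are not reported here.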

Additional observations from a re-analysis of the deposited data

Results flagged for a closer look

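A gap test for a single library far from its group (Dixon's 95% limit) was run on 116 groups of values, and chance marks about 1 in 20 such groups; 7 values were marked here. H2-Ab1 in mouse 9 at 1 week before onset lay low (27.9 CPM, gap share 0.487), and mouse 8 was the only one not higher at onset. Summed markers stood out for neutrophils in mouse 8 at 1 week before onset (564 CPM, gap share 0.473), hair follicle in mouse 2 at 1 week before onset (86.1 CPM, gap share 0.717), and T cells in mouse 6 at onset (82.9 CPM, gap share 0.558). The onset library of mouse 7 was marked for both keratinocyte (1396 CPM, gap share 0.655) and hair follicle markers (6727 CPM, gap share 0.52). The nonprogressor library of mouse 3 at 18 weeks held 4722396 counts, the fewest of its group (gap share 0.84 on the log2 scale). No named gene moved one way in every progressor and the opposite way in every nonprogressor, or in opposite ways in the 2 batches, among 76 such comparisons.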

How the results depend on the processing

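The onset step gave 0 genes without the replicate block (2188 at an unadjusted p under 0.05, against 1911), and the block changed no call of that step. It gave 268 genes with DESeq2, 1 within batch 1, 6 within batch 2, and 1 each (Arrdc4) with all 58 progressor libraries and, an alternative chosen after seeing the data, with the 40 from 5 weeks before onset on, where 1088 genes were higher and 945 lower at an unadjusted p under 0.05, a split that the 20 libraries give as 714 and 1197. Leaving out 1 mouse gave 0 to 8 genes: 8 without mouse 2 (Arrdc4, Gm9736, Krt27, Krt31, Krt33a, Krt71, Krtap11-1 and Krtap14) and 1 without mouse 1 (Rxfp1). DESeq2 size factors, no filter on low counts, a mean of at least 1 CPM and leaving out ribosomal, 7SL and mitochondrial genes all gave 0.

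The 21 nonprogressor genes became 0 without the replicate block, 3 with DESeq2 size factors, 692 with the DESeq2 test, 355 with no filter on low counts, 3 at a mean of at least 1 CPM, 5 without ribosomal, 7SL and mitochondrial genes, and 0 to 34 when a mouse was left out (0 without mouse 1, 2 or 4, 34 without mouse 3). The onset step minus the nonprogressor step gave 19 genes with DESeq2, 1 with NOR mice added as controls (Galnt2l) and 0 when NOR mouse 5, whose 18-week library had 87.5% of counts on ribosomal, 7SL and mitochondrial genes, was left out of them, 0 with NOR mice 1, 3 and 4 as the only controls (also chosen after seeing the data) and 0 to 5 with a mouse left out, the 5 (Krt27, Krt31, Krt33a, Krt71 and Krtap11-1) without mouse 2. The difference from the earlier step gave 5 with DESeq2, and that between batches 2 with DESeq2 and 0 to 1 with a mouse left out (Krtap14 without mouse 4, 1810049J17Rik without mouse 9).

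Of 758 values of 38 named genes (the 20 with the smallest p and the fixed set) over 20 alternatives of the onset step, 26 passed the threshold, 23 of them with DESeq2 and 3 for Arrdc4, none against its direction; of the genes named from lists, Krt71 also passed in edgeR without mouse 2 and Pi16 within batch 2. A sign changed in 8, none among the 20 genes with the smallest p: within batch 1 for Angptl4 (0.033), Pdk4 (0.012) and Cxcl9 (0.027), without the replicate block for Cxcl9 (0.0069), with 40 libraries for Cxcl9 (0.016), and with a mouse left out for Irs2 (-0.061 to 0.020). The cause of these changes was not tested.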
